A study of Mus musculus with 9 samples.

Results

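The potassium channel genes described here are the 58 genes of the deposited table whose symbol starts with Kcn and whose mean over the 9 libraries was at least 1 RPKM. RPKM is a read count divided by the length of the gene and the size of the library, so levels of different genes can be set side by side. Of the 27497 identifiers in the table, 82 carried such a symbol. The 24 others averaged under 1 RPKM, and 1 of these was listed at 0 in all 9 libraries. By class, members were 26 of 34 voltage-gated subunits, 8 of 12 auxiliary subunits, 10 of 14 inward rectifiers, 7 of 12 two-pore channels and 7 of 8 calcium-activated subunits. The 34 are identifiers: Kcnh8 appears under separate ones, at 0.69 and 0.40 RPKM, each counted on its own. The only sodium-activated gene and the only Slo3 gene with such a symbol were both under the threshold. At the edge of the threshold, Kcnj2 and Kcnj8 averaged 1.28 and 1.52 RPKM, and Kcnu1, Kcnk5 and Kcnk6 averaged 0.86, 0.73 and 0.70 RPKM. Kcnc1, a well-known voltage-gated gene, was not analysed here.

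Polyadenylated RNA of the olfactory bulb, the first relay of smell in the brain, was sequenced from 9 adult C57/BL6 mice. All mice were 6 to 8 weeks old or older, and each library came from a separate mouse. The 3 mice of the 120 min group were exposed to a mixture of odorants for 30 min and then kept in clean air for 90 min. The 30 min group held 3 mice whose bulbs were collected as soon as their 30 min of odorants ended, and the clean air group held 3 mice kept in air from an activated carbon filter. The dissected bulb holds many cell types, and the labels name no genetic change in any group. The design asks how the exposure and the time after it bear on transcript levels.

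Potassium channels let potassium leave the cell, which sets the resting potential, ends each action potential and spaces the next one. Voltage-gated channels open on depolarisation, inward rectifiers pass current best near rest, two-pore channels carry the background leak, and calcium-activated channels open after calcium entry. In the bulb these currents shape the firing of mitral and tufted cells, which send the output, and of the granule and periglomerular cells, which inhibit them, while glial inward rectifiers take up potassium released by active neurons.

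The classes share a pore loop whose filter reads threonine, a variable residue, glycine, tyrosine or phenylalanine, and glycine. This signature was searched in frame on the coding strand of GENCODE M21 transcripts, as a threonine codon, any codon with T as the middle base, a glycine codon, any codon that starts with T, and a glycine codon. At least 1 copy was found in 0.866% of 21584 coding genes. Among the 55 members with a coding sequence, it was found in all 9 inward rectifiers and 20 of 25 voltage-gated genes, each with 1 copy, and in 6 of 7 two-pore genes, each with 2 copies. It was found in 2 of 7 calcium-activated genes and in 0 of 7 auxiliary subunits. Kcnk1 of the two-pore class and the 5 voltage-gated genes Kcnh1, Kcnh2, Kcnh3, Kcnh6 and Kcnh7 held no match, which says only that these letters are not in their coding sequence. The windows below are shown because they mark each class by its pore and belong to the members whose values follow. Capitals mark the match, all are given 5′ to 3′ on the coding strand, and positions are those of GRCm38, a later build than the mm9 of the deposited table.
Kcnf1, chr12:17175052-17175081, minus strand: atgaccACAGTGGGCTATGGTgacatctac
Kcna2, chr3:107105218-107105247, plus strand: atgacaACTGTAGGCTATGGAgacatggtt
Kcnj3, chr2:55437621-55437650, plus strand: gaggccACCATCGGCTATGGCtaccgctac
Kcnj10, chr1:172369296-172369325, plus strand: cagaccACCATCGGCTATGGCttccgctac
Kcnk3, first copy, chr5:30588587-30621907 across an intron, plus strand: atcaccACCATCGGCTATGGTcatgcggcg
Kcnk3, second copy, chr5:30622196-30622225, plus strand: ctcaccACCATCGGCTTCGGCgactatgtg
Kcnk12, first copy, chr17:87746825-87797076 across an intron, minus strand: gtgtcgACCATAGGTTTCGGCatgacaaca
Kcnk12, second copy, chr17:87746444-87746473, minus strand: ttcagcACCATCGGCTTCGGGgacctggtg
Kcnma1, chr14:23528404-23528433, minus strand: atgtctACAGTGGGTTATGGGgacgtttat
The windows are exonic throughout, and the first copies of Kcnk3 and Kcnk12 are joined across an intron.

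Depth, recovered from the spacing of low values and given in units of 1000000 counts, was 10, 24 and 7 in the 120 min libraries, 9, 29 and 17 in the 30 min libraries, and 10, 22 and 30 in the clean air libraries. A count of 3 over 1 kb was worth 0.1004 to 0.419 RPKM. Markers of mitral and tufted cells were present in every library, with Slc17a7 at 324 to 521 RPKM and Tbx21 at 15.7 to 26.4 RPKM. In bulk tissue, fewer cells of a type and less RNA per cell cannot be told apart.

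The clean air mouse 2 library stood apart for these genes, and it enters every comparison with clean air. It held the lowest value of the 9 libraries for 23 of the 58 members (39.7%), against 17.96% of the 12780 tested genes. Its members lay a median of -0.19 on the log2 scale from their mean over 9 libraries, against -0.01 for all tested genes. The deviation went with transcript length, with a Pearson r of -0.53 across the 55 members of known length and -0.27 across 12132 tested genes, which share 1 library and are not independent replicates. The longest transcript of a member had a median of 4031 nt, against 3427 nt in tested genes. The same r over the members was 0.40, 0.28 and 0.11 in the 120 min libraries, 0.44, 0.15 and 0.017 in the 30 min libraries, and -0.22, -0.53 and -0.22 in the clean air libraries. It was thus above 0 in all exposed libraries and below 0 in all clean air libraries, so the length trend ran with the exposure groups. Over all tested genes, clean air mouse 3 was most often the lowest of the 9 libraries, for 25.4%, with a median deviation of -0.099. Among members, mouse 3 was lowest for 9 (15.5%), with a median deviation of 0.022. The part that transcript length or library quality has in the differences described here was not tested beyond the refits given with them.

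**Figure D1:**
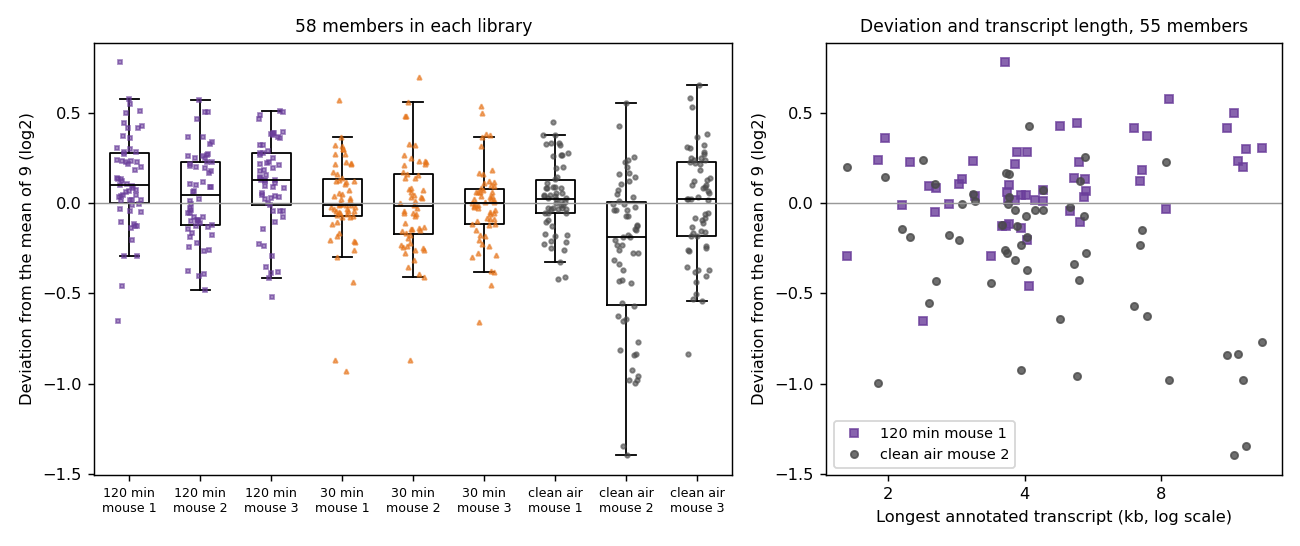
Left, deviation of each of the 58 genes from its mean over the 9 libraries (log2 scale, boxes give quartiles and median, points are genes). Right, the same deviation against the longest annotated transcript (kb, log scale) for 120 min mouse 1 and clean air mouse 2. The clean air mouse 2 box lies lowest, with a median of -0.19, and its points go down with length.

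The bulb held a few potassium channel transcripts at high levels and many at low ones. The 5 highest members, the inward rectifier Kcnj4, the silent voltage-gated subunit Kcnf1, the auxiliary subunits Kcnab2 and Kcnip2, and Kcnh3, held 42.4% of the summed RPKM of all 58. There were 3 members at 100 RPKM or more, 6 at 50 to under 100, 19 at 10 to under 50, and 30 under 10. The median member averaged 8.85 RPKM, against 9.93 RPKM for the median tested gene. With the members put in order of their mean, 3 of the 57 neighbouring pairs kept that order in all 9 libraries. These were Kcnj4 above Kcnf1, Kcnh3 above Kcnab3, and Kcnab3 above Kcnh2, so most neighbours in the order differ by less than the spread between mice. Over the 9 libraries the median member had an SD of 0.27 on the log2 scale, against 0.29 for all tested genes. The highest library was within 1.5-fold of the lowest for 13 members and over 2-fold above it for 25, and 17 of those 25 were lowest in clean air mouse 2.

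**Figure D2:**
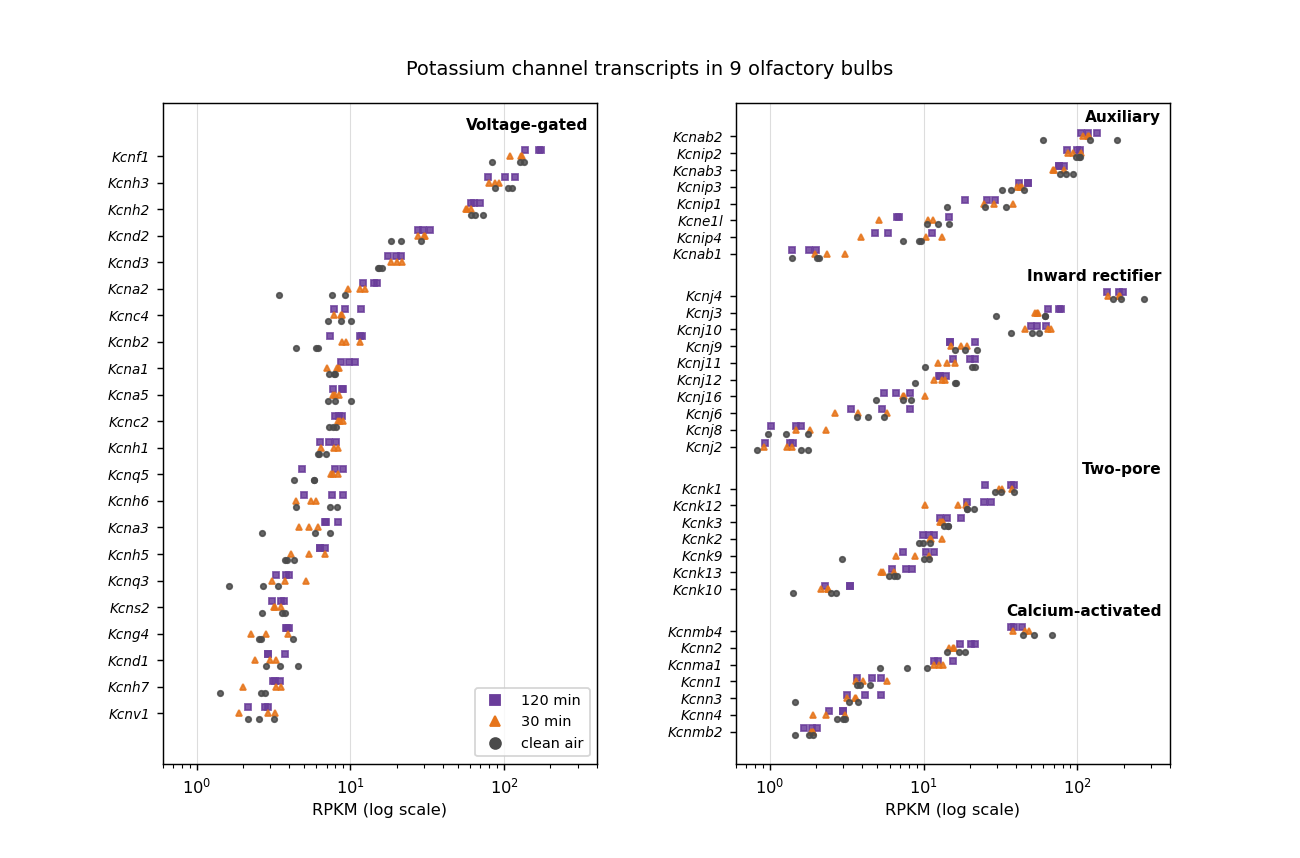
Level of 54 of the 58 genes in RPKM (log scale), with 1 point per mouse, grouped by class and ordered by mean. Purple squares are 120 min, orange triangles 30 min and grey circles clean air mice; for most genes the 3 groups intermingle.

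No potassium channel gene passed the test in any comparison. At a Benjamini-Hochberg adjusted p under 0.05 over the 12780 tested genes (limma), 0 of 58 members were called for 120 min against clean air, where 0.0861% of all tested genes were called. The count was also 0 of 58 for 30 min against clean air (0.141% of all genes called), for 120 min against 30 min (0.0782%) and in the F test over the 3 groups (0.164%). The smallest adjusted p of a member was 0.339 for 120 min against clean air, 0.731 for 30 min against clean air, 0.999 for 120 min against 30 min and 0.566 in the F test. At an unadjusted p under 0.05 there were 10 members (17.2%) for 120 min against clean air, beside 9.57% of all tested genes. The same counts were 5 (8.62%, beside 5.92%) for 30 min against clean air, 2 (3.45%, beside 3.36%) for 120 min against 30 min and 5 (8.62%, beside 6.64%) in the F test.

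The comparison bounds most of these genes within a doubling or halving. The 95% interval of the log2 difference lay within 1 of 0 for 45 of 58 members at 120 min against clean air, beside 78% of all tested genes. It did so for 50 members at 30 min against clean air (80.6% of all genes) and for 53 at 120 min against 30 min (83.3%). The median standard error of a member was 0.22 on the log2 scale.

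Against clean air, more members lay above 0 at 120 min than below. The log2 difference was above 0 for 40 of 58 (69%), with a median of 0.12, against 53.9% and a median of 0.03 over all tested genes. At 30 min against clean air it was above 0 for 32 (55.2%) with a median of 0.05, against 61.8% and 0.08 over all genes. For 120 min against 30 min, which does not use the clean air libraries, it was above 0 for 40 (69%) with a median of 0.07, against 43.7% and -0.03 over all genes. Without clean air mouse 2, 35 of 58 members were above 0 at 120 min against clean air, with a median of 0.09. Without it at 30 min against clean air, the count was 23 of 58 with a median of -0.09, so most members then lay below 0. The share of all tested genes above 0 in these refits is not reported here, so the members cannot be set against it.

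**Figure D3:**
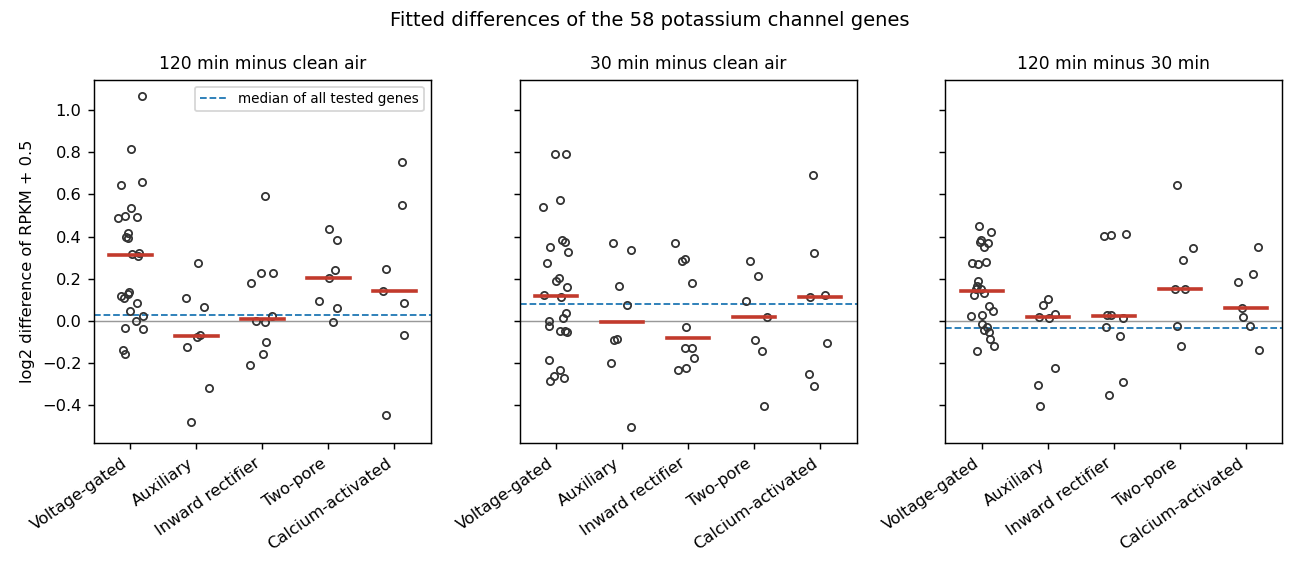
Fitted log2 difference of RPKM + 0.5 for each member, by class, in the 3 comparisons. Circles are genes, red bars class medians and the dashed line the median of all tested genes; the voltage-gated median at 120 min minus clean air, 0.31, is the highest bar.

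The voltage-gated class had the highest median difference of the classes at 120 min against clean air, 0.31 on the log2 scale, with 21 of 26 genes above 0. At 30 min against clean air its median was 0.12 with 16 of 26 above 0, and at 120 min against 30 min it was 0.14 with 19 of 26 above 0. No gene of the class was called. Without clean air mouse 2 the medians were 0.17 at 120 min and 0.0039 at 30 min against clean air. Without clean air mouse 3 they were 0.26 at 120 min and 0.16 at 30 min. With the trend on transcript length taken out of each library, an alternative added after the data were seen, they were 0.12 at 120 min and 0.013 at 30 min. The summed level of the class was 639, 567 and 664 RPKM in the 120 min mice, 556, 506 and 527 RPKM in the 30 min mice, and 524, 462 and 593 RPKM in the clean air mice. The 120 min sums lay above the 30 min sums and overlapped the clean air sums. The summed level of 5 mitral and tufted cell markers was 995 to 1053 RPKM at 120 min, 889 to 1032 RPKM at 30 min and 917 to 1350 RPKM in clean air. Gene by gene, 3 of the 5 mitral and tufted markers lay above 0 at 120 min against clean air, with a median of 0.41. At 120 min against 30 min, 5 of 5 did, with a median of 0.09. The shares over all tested genes were 53.9% and 43.7%. Reln, a secreted protein of mitral cells, had 57.1, 59.8 and 59.9 RPKM at 120 min, 41.2, 49.4 and 56.0 at 30 min, and 41.1, 18.6 and 39.8 in clean air (difference to clean air 0.90 ± 0.27, adjusted p = 0.345). Tbx21, a transcription factor of the same cells, had 26.4, 23.1 and 25.4 RPKM at 120 min, 16.9, 15.9 and 20.6 at 30 min, and 15.7, 20.1 and 16.5 in clean air (0.51 ± 0.16, adjusted p = 0.364). The 120 min mice lay above all others for both markers, which were chosen after their values were seen. Clean air mouse 2 was the lowest of all mice for Reln, and the Reln difference without that mouse is not reported here. Slc17a7 and Doc2g of the same list lay below 0 at 120 min against clean air, at -0.03 ± 0.21 and -0.27 ± 0.21. The summed level of 5 granule and other GABAergic interneuron markers was 1407 to 1514 RPKM at 120 min, 1452 to 1769 RPKM at 30 min and 1361 to 1583 RPKM in clean air. None of these markers was called in any comparison or listed at 0 in all libraries, and their part in the class values was not tested.

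**Figure D4:**
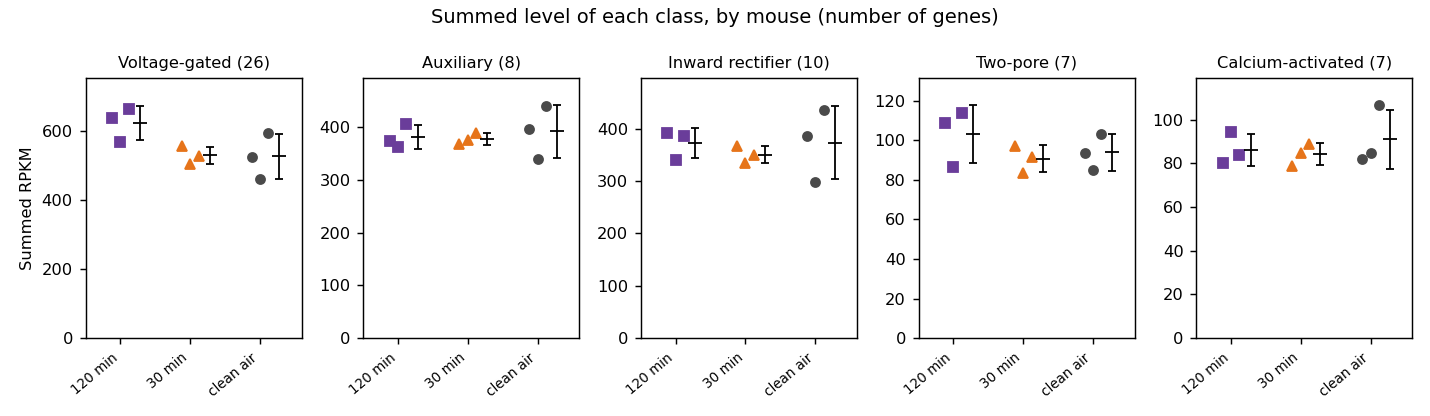
Summed RPKM of each class by mouse, with mean and SD of 3 mice beside the points. The groups overlap in every class except voltage-gated genes, where the 120 min mice (567 to 664) lie above the 30 min mice (506 to 556).

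Kcnf1, a subunit that forms no channel alone and joins other voltage-gated subunits, led the class with 23.6% of its summed level. It had 174, 136 and 168 RPKM in the 120 min mice, 128, 109 and 130 in the 30 min mice, and 126, 82.7 and 135 in the clean air mice. All the 120 min mice lay above both other groups, which overlapped each other. Its log2 difference at 120 min was 0.50 ± 0.20 (SE) against clean air (adjusted p = 0.478) and 0.38 ± 0.20 against 30 min (adjusted p = 0.999). Without clean air mouse 2 the difference to clean air was 0.28 (adjusted p = 0.658).

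Kcnb2 encodes a delayed rectifier of the neuronal cell body. Kcnb2 had 11.8, 11.5 and 7.34 RPKM at 120 min, 8.82, 11.6 and 9.32 at 30 min, and 5.98, 4.43 and 6.19 in clean air. Both exposed groups lay above all clean air mice, by 0.81 ± 0.22 at 120 min (unadjusted p = 0.00394, adjusted p = 0.339) and by 0.79 ± 0.22 at 30 min (unadjusted p = 0.00468, adjusted p = 0.731). Without clean air mouse 2 these differences were 0.67 and 0.65, with adjusted p = 0.556 and 0.629. Kcnb2 had no annotated transcript length, so it was not in the refit with the length trend removed.

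Of the Kcna genes, which encode low-threshold channels of axons and their terminals, Kcna2 had the widest spread between groups. It had 14.2, 14.9 and 12.1 RPKM at 120 min, 11.6, 12.53 and 9.70 at 30 min, and 9.17, 3.45 and 7.63 in clean air. Every exposed mouse lay above every clean air mouse, and clean air mouse 2 was far below the other two. The difference was 1.06 ± 0.29 at 120 min (adjusted p = 0.339) and 0.79 ± 0.29 at 30 min (adjusted p = 0.801), and without that mouse it was 0.68 (adjusted p = 0.556) and 0.40 (adjusted p = 0.629). Kcna1 had 8.63, 10.7 and 9.79 RPKM at 120 min, 8.24, 8.45 and 7.03 at 30 min, and 7.81, 7.93 and 7.31 in clean air, with a difference of 0.31 ± 0.16 at 120 min against clean air. Kcna3, whose channel carries much of the delayed current of rodent mitral cells, had 6.93, 6.87 and 8.33 RPKM at 120 min, 5.36, 6.18 and 4.66 at 30 min, and 5.90, 2.66 and 7.37 in clean air. The 120 min mice lay above the 30 min mice for both genes, and for Kcna3 they overlapped the clean air mice. In the GRCm38 gene order, Kcna3 and Kcna2 are neighbours on chromosome 3.

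The Kcnd genes encode the A-type channels of dendrites. Kcnd2 had 29.7, 27.4 and 33.0 RPKM at 120 min, 27.4, 30.3 and 30.4 at 30 min, and 28.6, 21.2 and 18.4 in clean air, so the groups overlapped through clean air mouse 1. Kcnd3 had 19.9, 21.2 and 17.6 RPKM at 120 min, 20.0, 21.7 and 18.3 at 30 min, and 16.0, 15.4 and 15.1 in clean air. Both exposed groups were above all clean air mice, by 0.32 ± 0.15 at 120 min (adjusted p = 0.520) and 0.35 ± 0.15 at 30 min (adjusted p = 0.818), and at 30 min the difference was also 0.35 without clean air mouse 2 but 0.18 with the length trend removed. An antisense gene, Kcnd3os, averaged 3.07 RPKM, and as the use of strand in counting is not given, its reads and those of Kcnd3 cannot be told apart.

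The Kcnq genes encode the M-type channels that damp repetitive firing. Kcnq3 had 3.97, 3.29 and 3.80 RPKM at 120 min, 5.14, 3.78 and 3.09 at 30 min, and 2.70, 1.63 and 3.36 in clean air, and the groups overlapped. Kcnq5 had 9.0, 7.98 and 4.85 RPKM at 120 min, 7.76, 7.43 and 8.36 at 30 min, and 5.79, 4.30 and 5.77 in clean air. For Kcnq5 the 30 min mice were above all clean air mice, by 0.54 ± 0.23 (adjusted p = 0.818), and 120 min mouse 3 lay among the clean air mice.

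The Kcnh genes encode channels related to ether-a-go-go of the fly. Kcnh3, an Elk-type channel active near rest, had 102, 78.8 and 118 RPKM at 120 min, 92.1, 79.2 and 87.2 at 30 min, and 86.8, 106 and 112 in clean air, and the groups overlapped. Kcnh2, the Erg channel of slow repolarising current, had 63.6, 61.1 and 69.2 RPKM at 120 min, 60.8, 57.0 and 56.7 at 30 min, and 64.8, 61.2 and 73.0 in clean air. The 30 min mice lay just below both other groups for Kcnh2, the highest of them at 60.8 RPKM and the lowest of the others at 61.1 RPKM. Kcnh5, an Eag-type channel, had 6.39, 6.80 and 6.33 RPKM at 120 min, 6.80, 5.35 and 4.11 at 30 min, and 3.77, 3.89 and 4.32 in clean air. The 120 min mice were above all clean air mice, by 0.64 ± 0.20 (adjusted p = 0.360), and the difference without clean air mouse 2 was 0.63.

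**Figure D5:**
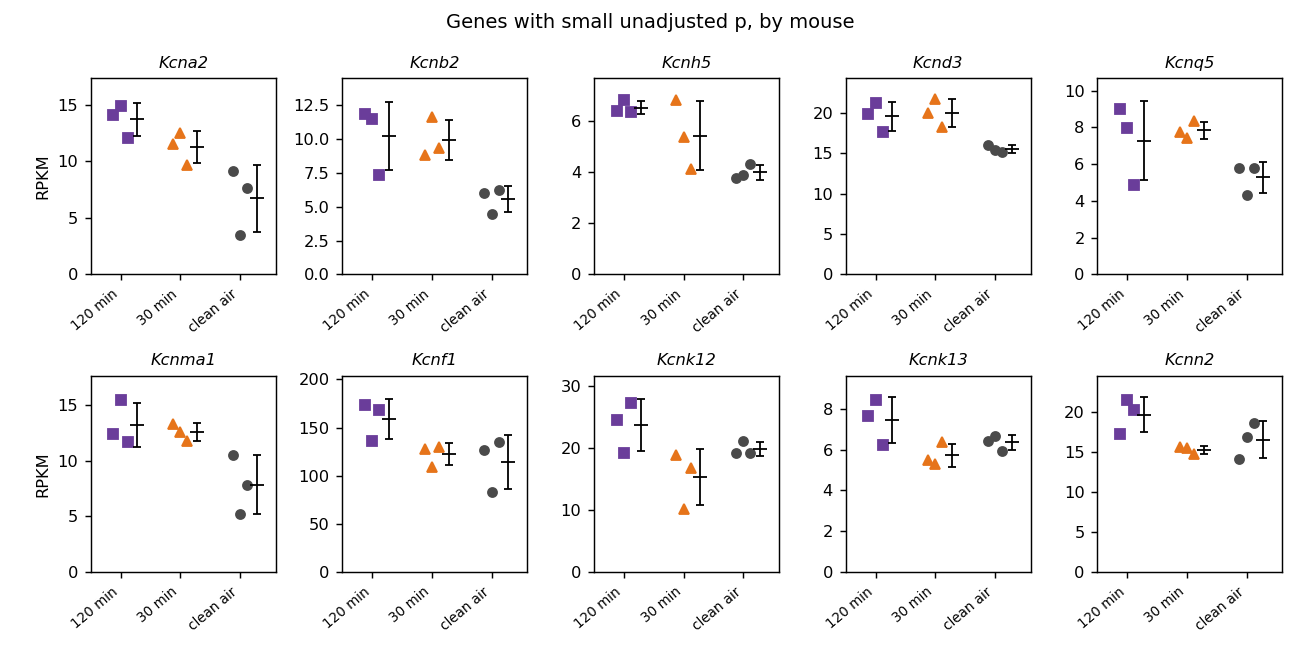
RPKM by mouse of 10 genes among those with the 5 smallest unadjusted p-values of a comparison, with mean and SD of 3 mice per group. Kcna2, Kcnb2, Kcnd3 and Kcnma1 have every exposed mouse above every clean air mouse, and none of the 10 passed the adjusted threshold.

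The auxiliary subunits, which change the gating or the surface level of the channels they bind, had a median difference of -0.07 at 120 min against clean air, -0.0066 at 30 min against clean air and 0.017 at 120 min against 30 min. Their summed level averaged 381 ± 22.4 RPKM at 120 min, 378 ± 10.9 at 30 min and 392 ± 50.7 in clean air (SD, n = 3 each). Kcnab2, the cytoplasmic partner of Kcna channels, had 118, 105 and 133 RPKM at 120 min, 117, 109 and 119 at 30 min, and 122, 59.9 and 180.2 in clean air. The clean air mice thus spanned all the exposed ones, with mouse 2 lowest and mouse 3 highest. Kcnab3 of the same family had 75.6, 75.5 and 81.6 RPKM at 120 min, 68.9, 70.8 and 81.7 at 30 min, and 76.95, 84.2 and 93.3 in clean air.

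Kcnip2 and Kcnip3 encode calcium sensors that bind Kcnd channels. Kcnip2 had 99.9, 85.2 and 104 RPKM at 120 min, 106, 86.7 and 93.9 at 30 min, and 103, 98.1 and 102 in clean air. Kcnip3 had 41.6, 48.0 and 47.4 RPKM at 120 min, 40.7, 43.9 and 42.3 at 30 min, and 45.03, 36.8 and 32.1 in clean air. The groups overlapped for all 8 auxiliary members in every comparison. Kcnip2 exceeded Kcnd2 in all 9 libraries, with a ratio of 2.87 to 5.54 and a median of 3.36.

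The inward rectifiers had a median difference of 0.011 at 120 min against clean air, -0.08 at 30 min against clean air and 0.021 at 120 min against 30 min. Kcnj4, a strong rectifier of neurons, held 51.7% of the class and was the highest member of all. It had 185, 156 and 198 RPKM at 120 min, 185, 158 and 189 at 30 min, and 193, 169 and 270.1 in clean air, and the groups overlapped. Its difference at 120 min against clean air was -0.21 ± 0.20 with a 95% interval of -0.64 to 0.22, and -0.35 without clean air mouse 2.

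Kcnj3 and Kcnj9 encode channels opened by G proteins, which carry slow inhibition. Kcnj3 had 78.5, 64.7 and 75.7 RPKM at 120 min, 54.9, 53.4 and 55.2 at 30 min, and 61.3, 29.4 and 61.7 in clean air. The 120 min mice were above both other groups, by 0.59 ± 0.25 against clean air (adjusted p = 0.496) and 0.41 ± 0.25 against 30 min (adjusted p = 0.999), and clean air mouse 2 held less than any other mouse. Without that mouse the difference to clean air was 0.24 (adjusted p = 0.660). Kcnj9 had 21.4, 14.7 and 14.9 RPKM at 120 min, 19.1, 14.99 and 17.5 at 30 min, and 22.2, 16.0 and 18.6 in clean air, overlapping throughout. Kcnj3 was above Kcnj9 in all 9 libraries, with a ratio of 1.83 to 5.09 and a median of 3.32.

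Kcnj10, the channel by which astrocytes take up potassium, had 54.7, 62.7 and 49.8 RPKM at 120 min, 64.8, 66.9 and 45.6 at 30 min, and 56.7, 51.0 and 36.8 in clean air. The groups overlapped, with differences of 0.23 ± 0.21 at 120 min and 0.29 ± 0.21 at 30 min against clean air. Of 6 astrocyte markers, 0 were called in any comparison. Against clean air, 5 of the 6 lay above 0 at 120 min (beside 53.9% of all tested genes) and at 30 min (beside 61.8%). Their summed level was 1226 to 1686 RPKM at 120 min, 1305 to 1508 RPKM at 30 min and 992 to 1497 RPKM in clean air, and none was at 0 in all libraries. Their part in the Kcnj10 values was not tested. Kcnj8, the pore of a channel closed by ATP in mural cells of vessels, stayed near the threshold at 1.60, 1.01 and 1.47 RPKM at 120 min, 1.47, 1.83 and 2.31 at 30 min, and 1.78, 0.97 and 1.28 in clean air. Kcnj9 and Kcnj10 are neighbours on chromosome 1, and Kcnj8 lies beside Abcc9, its regulatory partner, on chromosome 6 in the GRCm38 gene order.

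The two-pore channels had a median difference of 0.20 at 120 min against clean air, 0.02 at 30 min against clean air and 0.15 at 120 min against 30 min. Their summed level averaged 103 ± 14.5 RPKM at 120 min, 90.7 ± 6.99 at 30 min and 93.8 ± 9.14 in clean air (SD, n = 3 each). Kcnk1, a weak leak channel, held 34.9% of the class. It had 38.9, 24.9 and 36.8 RPKM at 120 min, 37.4, 32.6 and 30.9 at 30 min, and 31.9, 29.04 and 38.9 in clean air, and the groups overlapped.

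Kcnk12 and Kcnk13 form a pair of related genes, the second of which encodes a channel inhibited by halothane. Kcnk12 had the smallest unadjusted p of any member for 120 min against 30 min. It had 24.6, 19.2 and 27.4 RPKM at 120 min, 19.0, 10.2 and 16.8 at 30 min, and 19.2, 21.1 and 19.3 in clean air. The 30 min mice lay below both other groups, with 30 min mouse 2 lowest. The difference of 120 min to 30 min was 0.64 ± 0.23 (unadjusted p = 0.0166, adjusted p = 0.999), and 0.39 without 30 min mouse 2. Kcnk13 had 7.65, 8.43 and 6.22 RPKM at 120 min, 5.47, 5.30 and 6.37 at 30 min, and 6.44, 6.68 and 5.93 in clean air, and its groups overlapped.

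Kcnk3, an acid-sensitive leak channel, had 14.1, 12.7 and 17.6 RPKM at 120 min, 13.2, 13.4 and 12.8 at 30 min, and 14.3, 13.5 and 14.3 in clean air. Kcnk2, opened by stretch and lipids, had 9.91, 11.7 and 10.8 RPKM at 120 min, 11.1, 13.1 and 11.1 at 30 min, and 9.31, 9.95 and 11.02 in clean air. At 30 min Kcnk3 lay just below and Kcnk2 just above all clean air mice. The Kcnk3 difference at 30 min was -0.09 ± 0.16, within its error.

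The calcium-activated class had a median difference of 0.14 at 120 min against clean air, 0.11 at 30 min against clean air and 0.06 at 120 min against 30 min. Its summed level averaged 86.1 ± 7.26 RPKM at 120 min, 84.2 ± 5.02 at 30 min and 91.1 ± 13.6 in clean air (SD, n = 3 each). Kcnma1 encodes the pore of the large-conductance channel, which voltage and calcium open together. It had 12.4, 15.5 and 11.7 RPKM at 120 min, 13.3, 12.6 and 11.8 at 30 min, and 10.5, 5.22 and 7.81 in clean air. Every exposed mouse was above every clean air mouse, by 0.76 ± 0.23 at 120 min (adjusted p = 0.356) and 0.69 ± 0.23 at 30 min (adjusted p = 0.749), and without clean air mouse 2 the differences were 0.51 and 0.45. With the length trend removed they were 0.42 and 0.44.

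Kcnmb4, the neuronal beta subunit of that channel, which slows its gating, held 53.2% of the class. It had 37.2, 43.9 and 38.6 RPKM at 120 min, 38.0, 45.6 and 48.6 at 30 min, and 44.6, 52.4 and 68.5 in clean air. The 120 min mice lay below all clean air mice, and the log2 difference was -0.44 ± 0.18 (adjusted p = 0.481), opposite in sign to that of the pore gene. Its ratio to Kcnma1 was 2.99, 2.84 and 3.31 at 120 min, 2.85, 3.63 and 4.13 at 30 min, and 4.24, 10.04 and 8.77 in clean air. The ratio was lower in every exposed mouse than in any clean air mouse, with the highest values in clean air mice 2 and 3. The longest annotated transcript was 1626 nt for Kcnmb4 and 12094 nt for Kcnma1, and the length trend ran with the exposure groups. Its part in this ratio was not tested. The antisense gene Kcnmb4os1, whose reads cannot be told apart from those of Kcnmb4 without strand, averaged 24.1 RPKM and differed by -0.60 ± 0.25 at 120 min against clean air (adjusted p = 0.480).

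Kcnn2 and Kcnn1 encode small-conductance channels of the afterhyperpolarisation. Kcnn2 had 17.2, 21.5 and 20.3 RPKM at 120 min, 15.7, 15.5 and 14.7 at 30 min, and 14.1, 16.9 and 18.6 in clean air. The 120 min mice were above the 30 min mice, by 0.35 ± 0.16 (adjusted p = 0.999), and overlapped the clean air mice. Kcnn1 had 3.66, 4.59 and 5.30 RPKM at 120 min, 3.64, 4.06 and 5.75 at 30 min, and 4.47, 3.71 and 3.86 in clean air.

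Counted over all classes, the 120 min and clean air mice did not overlap for 11 members. These were 10 higher (17.2%, beside 7.86% of all tested genes) and 1 lower (1.72%, beside 5.27%), of which 8 of the higher ones were voltage-gated. At 30 min against clean air, 7 were higher (12.1%, beside 7.29%) and 3 lower (5.17%, beside 4.08%). At 120 min against 30 min, 9 were higher (15.5%, beside 4.99%) and 0 lower (beside 5.66%). The comparisons share groups, so these counts are not independent. Kcnb2, Kcna2, Kcnma1 and Kcnd3 were the 4 members with both exposed groups above all clean air mice, and 0 members had both below.

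Of 20 genes listed as partners that bind or anchor potassium channels, 16 were tested and 0 were called in any comparison. The 16 include Nalcn, itself a sodium leak channel. The median difference of the 16 was 0.30 at 120 min against clean air, with 13 above 0 (beside 53.9% of all tested genes). It was 0.27 at 30 min against clean air with 15 of 16 above 0 (beside 61.8%). At 120 min against 30 min it was 0.09 with 11 of 16 above 0 (beside 43.7%). The values of this list without clean air mouse 2 are not reported here. Dpp6, a partner of Kcnd channels, had 121, 122 and 126 RPKM at 120 min, 108, 123 and 123 at 30 min, and 107, 83.1 and 89.0 in clean air. All exposed mice lay above the clean air mice for Dpp6, by 0.41 ± 0.15 at 120 min (adjusted p = 0.419). Lrrc55, an auxiliary subunit of the Kcnma1 channel, had 59.7, 56.3 and 75.3 RPKM at 120 min, 41.0, 49.6 and 46.9 at 30 min, and 38.9, 18.9 and 59.2 in clean air. Its groups overlapped against clean air, and clean air mouse 2 was again the lowest. Dpp6 and Lrrc55 were chosen after their values were seen.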

How the data were processed

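Alignment used Bowtie and the mouse build mm9, per the submitters' processing notes. Its version, the gene annotation, how reads were counted and whether strand was used were not given in the sources used here. Values were used as deposited by the authors: RPKM for 27497 gene identifiers in 9 columns. The code in each sample description tied a column to its mouse.

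Depth was worked out from the steps between low RPKM values of short annotated RNAs, of which 86.2% to 93.9% came out whole within 0.05 in each library. The test was that of limma 3.58.1 (R 4.3.3) on log2(RPKM + 0.5), run on the 12780 genes averaging 1 RPKM or more. The eBayes step used a mean-variance trend, and 1 fit to all 9 libraries gave a median of 10.7 degrees of freedom. Fold changes on this scale understate those of low genes. Tests were two-sided, p-values were adjusted by Benjamini-Hochberg over all tested genes, and a gene was called at an adjusted p under 0.05. The script was tested on simulated data. A ± after a log2 difference is the SE from limma, and after a mean RPKM it is the SD of 3 mice. Floors cover counting error only.

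Genes named in the text are the 4 highest of each class, the 5 smallest unadjusted p per comparison, 3 on each side of 1 RPKM, and a panel of well-known channels. Some of these are not reported here. The members, lists and tests were chosen with earlier results of these data known. Transcript lengths, coding sequences and antisense names came from GENCODE M21 (GRCm38) by identifier, and gene order from RefSeq. Alternatives were other pseudocounts, filters and scalings, a fit without the trend, fits to 2 groups, a replicate block, each mouse left out, and removal of the length trend, the last added after the data were seen.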

Additional observations from a re-analysis of the deposited data

How the results depend on the processing

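No member was called in any of 75 alternative fits from 19 alternatives over the 4 tests. The differences with the 5 smallest unadjusted p of each comparison kept their sign in all 283 refitted values. Those genes were picked for small p in these same data. Several alternatives also cannot change a difference, so part of the 283 values repeat the main one. These are the filters, the fits to 2 groups, the fit without the trend, the replicate block, and leaving out a mouse of the third group. Other members did change sign. Without clean air mouse 2 the sign turned for 9 members at 120 min and for 9 at 30 min against clean air. Among these, Kcnab2 was then at -0.32 at 120 min and -0.36 at 30 min, Kcnj8 at -0.13 at 120 min, and at 30 min Kcna3 was at -0.27, Kcnj3 at -0.17, Kcnf1 at -0.097 and Kcnk1 at -0.071. The smallest adjusted p of a member ran from 0.162 to 0.6001 at 120 min against clean air, 0.314 to 0.999 at 30 min against clean air and 0.704 to 1 at 120 min against 30 min. Same-numbered mice of different groups deviated together with r of 0.08 to 0.44, not all over 0.1, so the numbers were not taken to pair the mice, although each mouse correlated best with its own number. With the replicate as a block, 0 members were called in each comparison. The smallest adjusted p of a member in that limma fit was 0.184 at 120 min and 0.402 at 30 min against clean air.

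Of 285 refitted class medians (log2), 20 moved by more than the spread between mice, and the cause was not tested. The 285 include the alternatives that cannot change a difference, so the share that moved understates the dependence on the others. With 1 mouse left out, the voltage-gated median ran from 0.17 to 0.33 at 120 min and from 0.0039 to 0.19 at 30 min against clean air, and from 0.078 to 0.19 at 120 min against 30 min. The auxiliary one ran from -0.073 to 0.13 at 30 min against clean air and from -0.15 to 0.081 at 120 min against 30 min. The inward rectifier one ran from -0.068 to 0.16 at 120 min and from -0.21 to 0.063 at 30 min against clean air. The two-pore one ran from 0.087 to 0.21 at 120 min and from -0.12 to 0.14 at 30 min against clean air, and from 0.026 to 0.31 at 120 min against 30 min. The calcium-activated one ran from 0.081 to 0.27 at 120 min against clean air, -0.051 to 0.17 at 30 min against clean air and 0.036 to 0.16 at 120 min against 30 min. Without the length trend the voltage-gated median was 0.12 at 120 min and 0.013 at 30 min. At 30 min against clean air, centring each library on its median gave -0.086 for auxiliary and 0.033 for calcium-activated genes, and quantile normalization gave 0.033 for calcium-activated genes.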

Other observations

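Some genes are potassium channel genes by the GENCODE annotation but carry no Kcn symbol in the deposited table, and they stayed outside the 58. Kcnt1, a sodium-activated channel, had 31.9, 16.4 and 23.9 RPKM in the 120 min mice, 39.4, 21.1 and 21.9 in the 30 min mice, and 36.3, 22.8 and 23.4 in the clean air mice. Within each group mouse 1 was highest, and the groups overlapped. Kcng2, a silent voltage-gated subunit, had 3.78, 4.26 and 5.0 RPKM at 120 min, 2.70, 2.12 and 2.99 at 30 min, and 4.4, 6.85 and 4.04 in clean air. Its 30 min mice lay below all clean air mice, by -0.83 ± 0.23 on the log2 scale (limma, adjusted p = 0.731). Kcnh4 averaged 3.86 RPKM and Kcnj13, known from choroid plexus and pigment epithelium, averaged 1.28 RPKM. Kcnj13 ran from 0.24 to 3.08 RPKM within the clean air group. Kcnk16 was listed at 0 in all 9 libraries. These genes were chosen after their values were seen, and none was called in any comparison.

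The Kcn genes also varied within groups. Kcnk9, an acid-sensitive leak channel chosen after its values were seen, had 10.3, 7.29 and 11.6 RPKM at 120 min, 8.74, 6.57 and 10.9 at 30 min, and 10.02, 2.96 and 10.8 in clean air. Clean air mouse 2 was below every other mouse, and the other 8 overlapped. Kcnip4, chosen the same way, had 4.82, 11.4 and 5.90 RPKM at 120 min, 3.89, 13.1 and 10.3 at 30 min, and 9.55, 9.39 and 7.33 in clean air, with mouse 2 highest in both exposed groups.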
